A study of Mus musculus with 4 samples.

Results

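The genes described here encode the phase II conjugation enzymes and the carboxylesterases of the small-intestinal epithelium. They were chosen by the names listed on the array, in 5 classes: UDP-glucuronosyltransferases (Ugt), soluble glutathione S-transferases (Gst), microsomal glutathione S-transferases (Mgst), sulfotransferases (Sult) and carboxylesterases (Ces). The naming rule took 75 of 41174 probes and, after symbols were updated, 53 of 27725 genes, with 14 Ugt, 20 Gst, 3 Mgst, 10 Sult and 6 Ces genes. The rule uses names alone, though the members were chosen with earlier results of these data known.

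RNA came from freshly isolated small-bowel cells of mice with the IKKb(EE)IEC genotype, in which the intestinal epithelial cells carry IKKb, a kinase of the NF-kB pathway, in a permanently active form, and of wild-type (WT) littermates, with no further treatment stated. There were 2 biological replicates per genotype, each on 1 single-colour array. The sources used here do not give the promoter that drives the active kinase, the strain, the age or the number of mice per sample. All fold changes are IKKb(EE)IEC relative to WT, n = 2 arrays per genotype, which limits how precise they can be.

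Conjugation enzymes attach a polar group to drugs, hormones, bile pigments and dietary compounds so that transporters can remove them. Glucuronosyltransferases of the endoplasmic reticulum use UDP-glucuronic acid, sulfotransferases of the cytosol use the activated sulfate PAPS, and glutathione S-transferases use glutathione. Carboxylesterases hydrolyse esters and amides, among them lipids and prodrugs, and often expose the group that is then conjugated. The enterocytes of the small intestine express members of each class and are the first barrier for compounds taken up with food.

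A gene entered the comparison where its probe passed the scanner's test of being well above background on 2 or more arrays, which held for 40 of the 53 genes (9 Ugt, 17 Gst, 3 Mgst, 6 Sult and 5 Ces). The other 13 were Ugt1a9, Ugt2b1, Ugt3a1, Ugt3a2, Ugt8a, Gstm4, Gstt1, Gstt4, Sult1e1, Sult3a1, Sult4a1, Sult5a1 and Ces5a. Gstm4 and Sult4a1 were well above background on 1 array and the rest of these on none. Of the 40 measured genes, 1 (Ugt2b38) passed this filter through the WT arrays alone. Ces1d, Ces1g, Gsto2 and Sult1a1 were well above background on 1 WT array and both IKKb(EE)IEC arrays, and the other 35 on all arrays.

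Of the 40 measured genes, 9 fell and 0 rose in IKKb(EE)IEC (adjusted p below 0.05) by limma, a linear model with moderated variances fitted over all 12433 genes tested. The 9 genes make up 22.5% of the measured members, where 7.17% of all genes tested were lower and 7.96% higher. At an unadjusted p below 0.05 in limma, 17 members were lower and 3 higher, where 21.6% and 16.5% of all genes tested were. With the filter set to all 4 arrays, 9 of 35 members were lower, Ugt2b38 no longer being measured and Gstm6 passing, and 11.2% of all genes were. The 9 genes that fell were the glucuronosyltransferases Ugt2a3, Ugt2b38, Ugt2b5, Ugt2b35 and Ugt1a1, the glutathione transferases Gstk1 and Gstz1, the sulfotransferase Sult1b1 and the carboxylesterase Ces2a. Both IKKb(EE)IEC arrays lay below both WT arrays for 23 of the 40 genes, against 40.9% of all genes tested. Both lay above for 4 (Gsta3, Gsta4, Gstp1 and Sult2b1), against 28.3% of all genes tested, and the genotypes overlapped for 13. The median log2 fold change of the members was -0.39, and that of all genes tested was -0.12. Below 0 were 31 of the 40 members (77.5%) and 58% of all genes tested.

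By class, 5 of 9 measured Ugt genes fell, 2 of 17 Gst, 0 of 3 Mgst, 1 of 6 Sult and 1 of 5 Ces. Ugt2b38 is among these Ugt genes, and with the filter set to all 4 arrays 4 of 8 Ugt genes fell. The median log2 fold change was -0.71 for Ugt, -0.20 for Gst, -0.29 for Mgst, -0.18 for Sult and -0.63 for Ces. All 9 Ugt values were below 0, also with the array median, quantile normalization, both normexp corrections and the authors' value table, and so were all 5 Ces values, except 1 of them with normexp over all spots. The classes were not tested against each other or against the other genes.

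**Figure D1:**
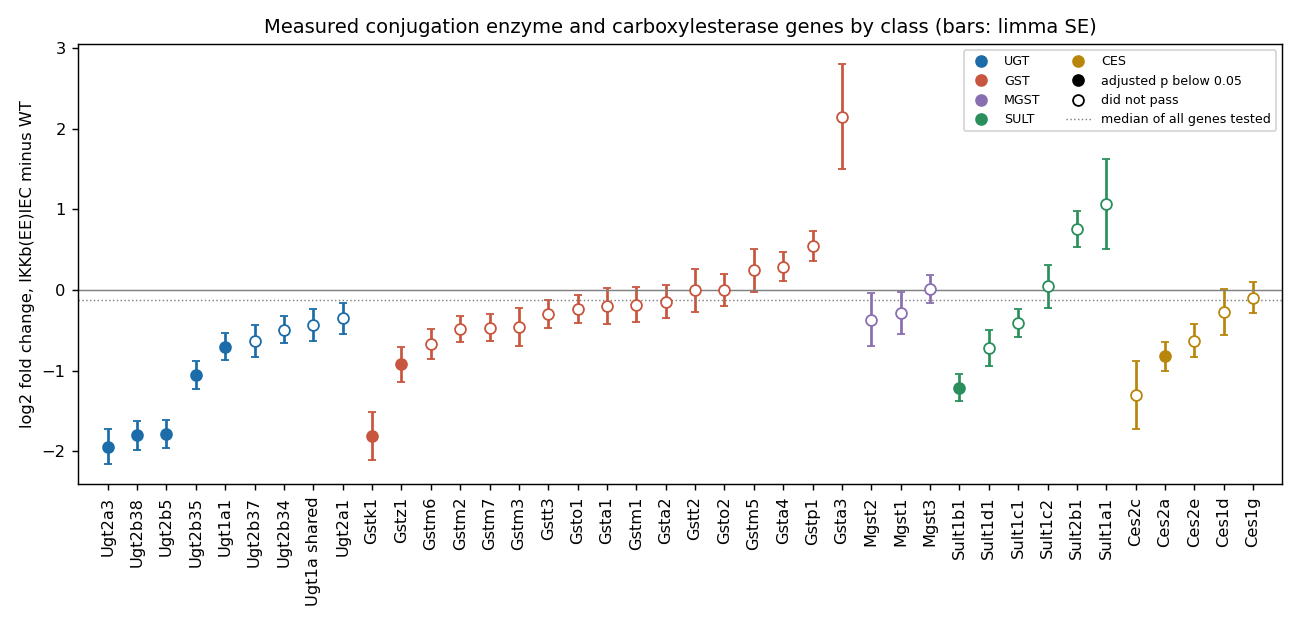
Log2 fold change (IKKb(EE)IEC minus WT) of the 40 measured genes by enzyme class; bars are standard errors of the limma fit. Filled points passed an adjusted p of 0.05. The 9 filled points lie between -1.94 (Ugt2a3) and -0.71 (Ugt1a1), and the highest open point is Gsta3 at 2.15.

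The calls depended on the arrays used. Without WT replicate 1 there were 18 members lower and 3 higher, where 28.5% and 21.2% of all genes were. Without WT replicate 2 there were 14 and 3, where 18.2% and 15.4% of all genes were. Without IKKb(EE)IEC replicate 1 there were 0 lower and 0 higher (0.676% and 1.39% of all genes), and 7 and 1 at an unadjusted limma p below 0.05 (8.95% and 8.43%). Without IKKb(EE)IEC replicate 2, only Ugt2a3, Ugt2b38 and Ugt2b5 of the 9 still passed and 0 members were higher, where 0.845% and 1.83% of all genes were. At an unadjusted limma p below 0.05, 9 members were lower and 1 higher there (6.7% and 9.09% of all genes). The split of lower and higher members also moved with the processing. From 9 and 0 it became 8 and 2 with a shift by the array median (adding Gsta3 and Sult1a1 as higher). That fit gave every gene the same SE of 0.32, where the main fit gave 0.65 for Gsta3 and 0.56 for Sult1a1. The median log2 fold change of the members moved only from -0.39 to -0.33. With a repaired normexp background correction the split became 6 and 2 (adding Gsta3 and Gstp1). Over all genes, 990 were higher and 891 lower, which became 1259 and 734 with the median shift and 1403 and 552 with the repaired normexp correction.

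**Figure D2:**
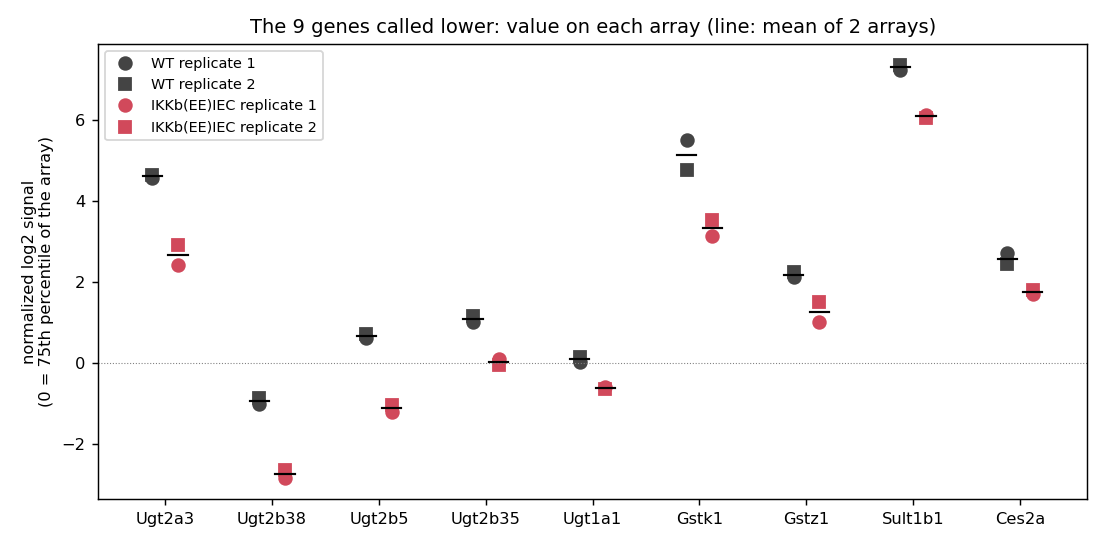
Normalized log2 signal of the 9 genes that fell, on each of the 4 arrays; 0 is the 75th percentile of the array and the line is the mean of the genotype's arrays. Levels of different genes come from different probes and cannot be compared. For each gene both IKKb(EE)IEC arrays lie below both WT arrays, with the widest gap for Ugt2a3 (1.67).

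Ugt2a3, a glucuronosyltransferase of the Ugt2 family, had normalized log2 signals of 4.57 and 4.64 in WT against 2.43 and 2.90 in IKKb(EE)IEC, where 0 is the array's 75th percentile. Its level was 3.84-fold lower (log2 fold change -1.94 ± 0.22, SE; adjusted p = 0.00744 in limma). Both IKKb(EE)IEC arrays were low, and the gap of 1.67 between the genotypes was several times the spread within either of them.

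Ugt2b5 was at 0.62 and 0.73 in WT and at -1.21 and -1.02 in IKKb(EE)IEC, and was 3.45-fold lower (-1.79 ± 0.17, SE; adjusted p = 0.00505 in limma). Ugt2b38 was at -1.02 and -0.85 in WT and at -2.84 and -2.63 in IKKb(EE)IEC (-1.80 ± 0.18, SE; adjusted p = 0.0054 in limma). Both IKKb(EE)IEC arrays were not well above background for Ugt2b38, so the fold is given only as at least 1.97-fold lower with the main processing. This is set against the lowest signal well above background on those arrays or the probe's own. It is no limit for other treatments of background, under which the difference was smaller. The array lists this probe with accessions of Ugt2b38, Ugt2b37 and Ugt2b5, and its signal can hold RNA of all of them.

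Ugt2b35 was at 1.01 and 1.16 in WT and at 0.11 and -0.05 in IKKb(EE)IEC, 2.08-fold lower (-1.05 ± 0.17, SE; adjusted p = 0.0222 in limma, and 0.0516 without a filter on dim probes). For these dim probes the size of the fall depended on how background was treated. In the authors' deposited value table the difference was -0.74 for Ugt2b5, -0.56 for Ugt2b35 and -0.37 for Ugt2b38, and with the repaired normexp correction it was -0.88, -0.58 and -0.63. Ugt2b38 did not pass in the authors' table (adjusted p = 0.0524 in limma). The difference of Ugt2a3, whose signal was brighter, was between -1.94 and -1.57 under the 7 other treatments of the signal and the filter that were run on all arrays.

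The remaining Ugt2 genes had smaller differences at the probe that represented them. Ugt2b37 was at 0.81 and 0.44 in WT and at -0.06 and 0.03 in IKKb(EE)IEC (-0.64 ± 0.20, SE; adjusted p = 0.0815 in limma). Ugt2b34 was at 2.70 and 2.89 against 2.32 and 2.29 (-0.49 ± 0.17, SE; adjusted p = 0.0995 in limma). Ugt2a1 was at 0.89 and 0.60 against 0.49 and 0.29 (-0.35 ± 0.19, SE; adjusted p = 0.226 in limma). In each of them the genotypes did not overlap, but none passed.

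Other probes of these genes gave larger differences. A second probe listed for Ugt2b37, which also carries an accession of Ugt2b36, differed by -1.68 ± 0.18 (SE) and was lower in the fit over probes (adjusted p = 0.00644 in limma). It was not well above background in IKKb(EE)IEC, so that it was at least 2.16-fold lower. For Ugt2a1 the other probes differed by -1.67 ± 0.18 and -2.55 ± 0.36 (SE) and also passed (adjusted p = 0.00644 and 0.0143 in limma), the latter without clearing background in IKKb(EE)IEC (at least 2.63-fold lower). Ugt2a1 had the widest spread between probes of 1 member, 2.19 log2 units, and which transcripts each probe detects was not examined. Of the 51 member probes tested one by one, 13 were lower and 1 was higher, against 5.76% and 8.19% of all probes tested. Among the lower ones, the probe of Ugt2b38, the second of Ugt2b37 and the dimmest of Ugt2a1 passed the filter through the WT arrays alone. Sult1b1 and Ugt2a1 each gave more than 1 of the lower probes, and the Ugt2b38 probe also lists Ugt2b37 and Ugt2b5. The 13 are therefore not all separate genes. The probe that was higher is the second of Gstp1.

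**Figure D3:**
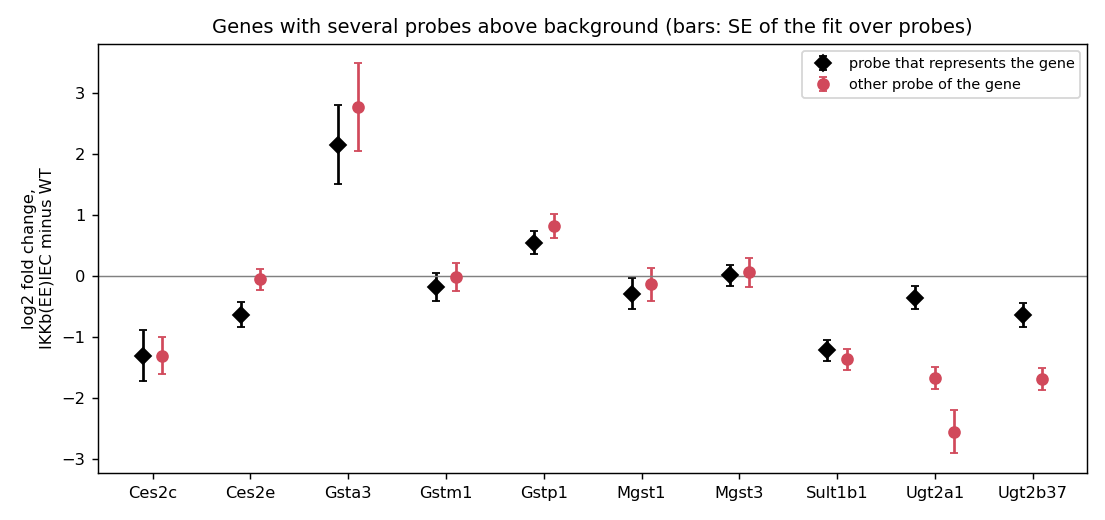
Log2 fold change of each probe for the 10 members with more than 1 probe above background, with the standard error of the fit over probes. Diamonds mark the probe with the highest mean signal, which represents the gene. No gene has probes of opposite sign, and the probes of Ugt2a1 lie 2.19 apart.

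The Ugt1 family has 1 locus, on chromosome 1, where alternative first exons are joined to shared exons. Ugt1a1, the enzyme that conjugates bilirubin, was at 0.02 and 0.16 in WT and at -0.59 and -0.64 in IKKb(EE)IEC, 1.63-fold lower (-0.71 ± 0.17, SE; adjusted p = 0.0477 in limma). A probe listed for the Ugt1a cluster, with accessions of Ugt1a6b, Ugt1a6a, Ugt1a7c and Ugt1a10, was at 7.46 and 7.09 against 6.84 and 6.85 (-0.43 ± 0.20, SE; adjusted p = 0.166 in limma). The fall of Ugt1a1 was the least firm of the Ugt calls. It did not pass with the array median as the scale (adjusted p = 0.163 in limma), a fit that gave every gene an SE of 0.32. Nor did it pass in the authors' value table (-0.25; 0.118), with the repaired normexp correction (-0.34; 0.0836), without a filter (0.0628) or with the replicate number as a block (0.0644).

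The Ugt2 genes and the sulfotransferases Sult1b1 and Sult1d1 lie side by side on chromosome 5. Their probes span mm8 positions 87965089 to 88650782, a stretch of 685.7 kb that holds 11 member genes, 9 of them measured. Of these 9, 5 fell, all 9 had values below 0, and their median log2 fold change was -1.05. Ugt2b38, among the 5, passed the filter through the WT arrays alone. Its probe also lists accessions of Ugt2b37 and Ugt2b5, so it may not be separate from Ugt2b5 in this count. The other 31 measured members lie elsewhere or have no listed position, and 4 of them fell. Over all genes tested, 7.17% fell and 58% had values below 0. The stretch was not tested against the other members or the other genes. No measured gene outside the naming rule had a probe in the stretch. The probe positions are those of the files, which do not name the exon.

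**Figure D4:**
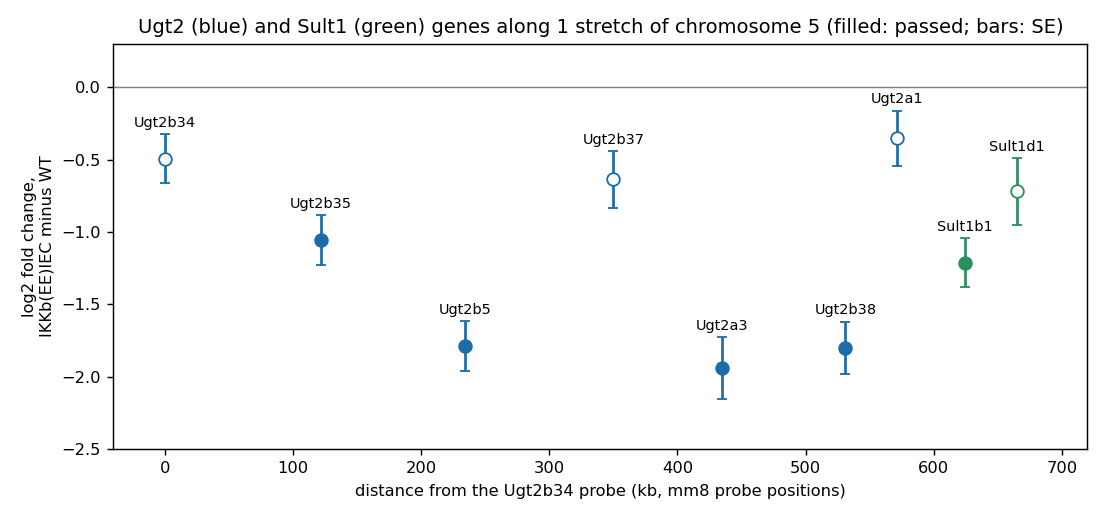
Log2 fold change, with its standard error, of the 9 measured genes in the chromosome 5 stretch against the distance of their probe from that of Ugt2b34, in kb. Filled points passed, among them Ugt2b38, which was well above background on the WT arrays alone. All 9 points lie below 0, the lowest at -1.94 (Ugt2a3) and the highest at -0.35 (Ugt2a1).

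The letters upstream of 3 Ugt2b genes of this stretch, Ugt2b5, Ugt2b38 and Ugt2b37, are shown because they share a long run with each other, and those of Ugt2a3 because it fell by the most and shares none of that length. Each is the 250 bases before the start site in RefSeq (GRCm38.p6 positions), read 5′ to 3′ along the gene. Capitals mark the longest run shared with Ugt2b5 and, in Ugt2b5 itself, the run shared with Ugt2b38.
Ugt2b5 (chr5:87140341-87140590, minus strand): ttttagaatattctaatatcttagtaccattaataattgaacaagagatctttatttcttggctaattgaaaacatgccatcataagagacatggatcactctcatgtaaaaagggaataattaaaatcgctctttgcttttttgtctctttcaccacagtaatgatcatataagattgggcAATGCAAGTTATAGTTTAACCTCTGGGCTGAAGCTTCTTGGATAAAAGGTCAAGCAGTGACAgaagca
Ugt2b38 (chr5:87424204-87424453, minus strand): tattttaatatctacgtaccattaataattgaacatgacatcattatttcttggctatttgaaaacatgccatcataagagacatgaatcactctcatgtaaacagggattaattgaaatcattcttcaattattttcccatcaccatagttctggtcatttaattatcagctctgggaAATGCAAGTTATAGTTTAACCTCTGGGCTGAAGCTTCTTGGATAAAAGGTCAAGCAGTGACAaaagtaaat
Ugt2b37 (chr5:87254789-87255038, minus strand): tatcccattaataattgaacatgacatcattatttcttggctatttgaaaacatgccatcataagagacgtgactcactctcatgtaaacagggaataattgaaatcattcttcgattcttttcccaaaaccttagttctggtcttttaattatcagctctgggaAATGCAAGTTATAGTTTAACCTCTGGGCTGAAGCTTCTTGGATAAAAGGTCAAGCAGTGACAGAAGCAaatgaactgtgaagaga
Ugt2a3 (chr5:87337196-87337445, minus strand): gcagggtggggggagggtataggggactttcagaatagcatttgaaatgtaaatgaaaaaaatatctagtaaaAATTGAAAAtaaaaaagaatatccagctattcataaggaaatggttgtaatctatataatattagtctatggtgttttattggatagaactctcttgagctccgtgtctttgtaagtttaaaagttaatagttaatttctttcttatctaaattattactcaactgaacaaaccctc

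Ugt2b5 and Ugt2b38 share 62 bases letter for letter, ending 6 and 9 bases before their start sites, and Ugt2b5 and Ugt2b37 share 68. The longest run that Ugt2a3 or Ugt2b35 shares with Ugt2b5 is 9 bases. Ugt2b5 and Ugt2b38 fell, and Ugt2b37 had the genotypes apart at both of its measured probes with 1 of them passing. The upstream windows of the Ugt2 genes were 58.4% to 69.6% A and T, where the median over all RefSeq promoters in the table was 47.6%. Ugt2b35 and Ugt2a3 fell without the shared run, and these data measure no binding, so the run is a description of sequence only.

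Promoters of 47 of the 53 members, with 58 entries in all, were found in the RefSeq table (250 bases before to 50 after the start), among them all 9 genes that fell, with 11 entries. Both strands were searched for short letter patterns, which may overlap each other. The antioxidant response element core TGACNNNGC was in 4 of 58 member entries and 0 of the 11 entries of genes that fell, and in 12.4% of all promoters. The aryl hydrocarbon receptor element core GCGTG was in 12 of 58 and 1 of 11 (Sult1b1), and in 32.4% of all. The HNF4 site CAAAGTCCA was in 1 of 58, that of Sult1b1, and in 0.475% of all. The frame of a kB site (GGG, any 5 bases, then CC) was in 31 of 58 and 2 of 11 (Gstk1 and Sult1b1), and in 50.8% of all. A match is a description of letters, and a missing one says only that they are not in this window.

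Among the sulfotransferases, Sult1b1, which acts on phenols and thyroid hormones, was at 7.23 and 7.36 in WT and at 6.13 and 6.04 in IKKb(EE)IEC, 2.32-fold lower (-1.21 ± 0.17, SE; adjusted p = 0.0142 in limma). Its second probe gave -1.36 ± 0.18 (SE; adjusted p = 0.0118 in the limma fit over probes). Both IKKb(EE)IEC arrays were low and close to each other. Its neighbour Sult1d1 averaged 5.75 in WT and 5.03 in IKKb(EE)IEC, without overlap, and did not pass (-0.72 ± 0.23, SE; adjusted p = 0.0853 in limma).

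Sult2b1, which sulfates cholesterol and related sterols, was at 0.72 and 0.61 in WT and at 1.17 and 1.68 in IKKb(EE)IEC. Both IKKb(EE)IEC arrays were above both WT arrays, and the difference did not pass (0.76 ± 0.22, SE; adjusted p = 0.0728 in limma). Sult1a1, the phenol sulfotransferase, was at -2.19 and -0.49 in WT and at -0.54 and -0.02 in IKKb(EE)IEC (1.06 ± 0.56, SE; adjusted p = 0.214 in limma). The WT arrays of Sult1a1 were 1.70 apart, wider than the difference between genotypes, and 1 of them was not well above background. Sult1c1 (-0.41) and Sult1c2 (0.04) did not pass.

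Gstk1, the glutathione transferase of mitochondria and peroxisomes, showed the largest fall of its class. It was at 5.50 and 4.77 in WT and at 3.13 and 3.53 in IKKb(EE)IEC, 3.51-fold lower (-1.81 ± 0.30, SE; adjusted p = 0.0223 in limma). Without a filter on dim probes it did not pass (adjusted p = 0.0502). The genotypes were 1.24 apart at their nearest arrays, and the WT arrays differed from each other by 0.73. Its upstream letters are shown because it and Sult1b1 were the members that fell with a kB frame in the window. They are the 80 bases before its RefSeq start (GRCm38.p6), with the bases of every match to the kB frame on either strand in capitals. The matches begin between 75 and 55 bases before the start.
Gstk1 (chr6:42245855-42245934, plus strand): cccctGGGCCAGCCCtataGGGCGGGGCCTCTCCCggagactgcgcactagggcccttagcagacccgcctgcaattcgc

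Gstz1, the maleylacetoacetate isomerase of tyrosine breakdown, was at 2.12 and 2.24 in WT and at 1.01 and 1.50 in IKKb(EE)IEC, 1.90-fold lower (-0.92 ± 0.22, SE; adjusted p = 0.0488 in limma). It did not pass with the repaired normexp correction (-0.57; adjusted p = 0.0699), without a filter (0.0628) or in the fit over probes (0.0502). Of the 2 Gst genes that fell, neither belongs to the alpha, mu or pi classes that carry out most xenobiotic conjugation.

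The alpha class had no member past the threshold. Gsta3 was at 0.53 and 2.49 in WT and at 4.04 and 3.28 in IKKb(EE)IEC, and the WT arrays were 1.96 apart. It was 4.44-fold higher on average but did not pass (2.15 ± 0.65, SE; adjusted p = 0.0774 in limma), and its second probe gave 2.76 ± 0.72 (SE; adjusted p = 0.0578 in the limma fit over probes). The value was 1.17 without WT replicate 1 and 3.13 without WT replicate 2. Gsta1 (-0.20) and Gsta2 (-0.15), whose probes each list both genes and cannot be told apart, had overlapping genotypes.

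Gsta4, which conjugates lipid aldehydes such as 4-hydroxynonenal, was printed on 10 spots per array. Its signal on the scanner's scale ranged over these spots from 85.3 to 99.5 on WT replicate 1 and from 100.2 to 126.7 on WT replicate 2, and the standard deviation between spots was 0.05 to 0.10 log2 units on the 4 arrays. At 0.61 and 0.76 in WT against 1.07 and 0.88 it did not pass (0.29 ± 0.18, SE; adjusted p = 0.276 in limma).

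Gstp1, the pi class enzyme, was at 8.10 and 7.90 in WT and at 8.42 and 8.66 in IKKb(EE)IEC (0.54 ± 0.19, SE; adjusted p = 0.0985 in limma). Its second probe gave 0.82 ± 0.20 (SE; adjusted p = 0.05 in the limma fit over probes, just under the threshold before rounding). Gstp1 passed with quantile normalization, with the repaired normexp correction and in the authors' value table. The accessions listed for its probe include Gstp2.

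In the mu class, whose genes lie together on chromosome 3, 6 genes were measured and none passed. Gstm6 came closest, at 0.19 and 0.28 against -0.56 and -0.31 (-0.67 ± 0.18, SE; adjusted p = 0.0609 in limma), and was lower with the filter set to all 4 arrays. Gstm2 (-0.48), Gstm3 (-0.46) and Gstm7 (-0.47) also had both IKKb(EE)IEC arrays below WT, and Gstm1 (-0.18) and Gstm5 (0.25) overlapped. The theta genes Gstt2 (0.00) and Gstt3 (-0.30) and the omega genes Gsto1 (-0.24) and Gsto2 (0.00) did not pass.

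The 3 microsomal genes overlapped between genotypes, and 0 of them reached an unadjusted limma p below 0.05. Mgst1, a membrane-bound transferase and peroxidase, was at 5.01 and 5.67 in WT and at 5.02 and 5.09 in IKKb(EE)IEC (-0.29 ± 0.26, SE; adjusted p = 0.44 in limma). Mgst2, which can form leukotriene C4, was at 7.71 and 8.66 against 7.84 and 7.80 (-0.37 ± 0.33, SE; adjusted p = 0.443 in limma). In both genes WT replicate 2 alone was high, and the sign turned without it (0.04 for Mgst1 and 0.11 for Mgst2). Mgst3 was at 4.75 and 4.90 against 4.77 and 4.90, a difference of 0.01 ± 0.17 (SE).

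Of the 5 carboxylesterases measured under the naming rule, 3 belong to the Ces2 family on chromosome 8. At the probes that represented them, these had larger differences than Ces1d and Ces1g, which were near background. Among those listed under older names, Ces1c (-1.67) and Ces2g (0.11) went against this split. Ces2b (-1.26), Ces2f (-1.27), Ces1e (-0.18) and Ces1f (0.05) followed it. Ces2a, listed on the array as Ces6, was at 2.71 and 2.45 in WT and at 1.71 and 1.81 in IKKb(EE)IEC, 1.77-fold lower (-0.82 ± 0.18, SE; adjusted p = 0.0423 in limma). The call was lost with the array median as the scale (adjusted p = 0.0886 in limma), a fit that gave every gene an SE of 0.32. It was also lost with the repaired normexp correction (-0.49; 0.05003), without a filter (0.0628) and with a replicate block (0.0572).

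Ces2c, listed as Ces2, was at 6.17 and 4.89 in WT and at 4.33 and 4.12 in IKKb(EE)IEC. The WT arrays were 1.28 apart and both IKKb(EE)IEC arrays lay below them, and the difference did not pass (-1.30 ± 0.42, SE; adjusted p = 0.0878 in limma). Its second probe also gave -1.30 and passed in the fit over probes (adjusted p = 0.046 in limma). The value was -0.66 without WT replicate 1 and -1.94 without WT replicate 2. Ces2e, listed as Ces5, was at 6.74 and 6.37 against 5.82 and 6.03 (-0.63 ± 0.21, SE; adjusted p = 0.0889 in limma), and its second probe gave -0.05. Ces1d (-0.28) and Ces1g (-0.10) were near background and overlapped.

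**Figure D5:**
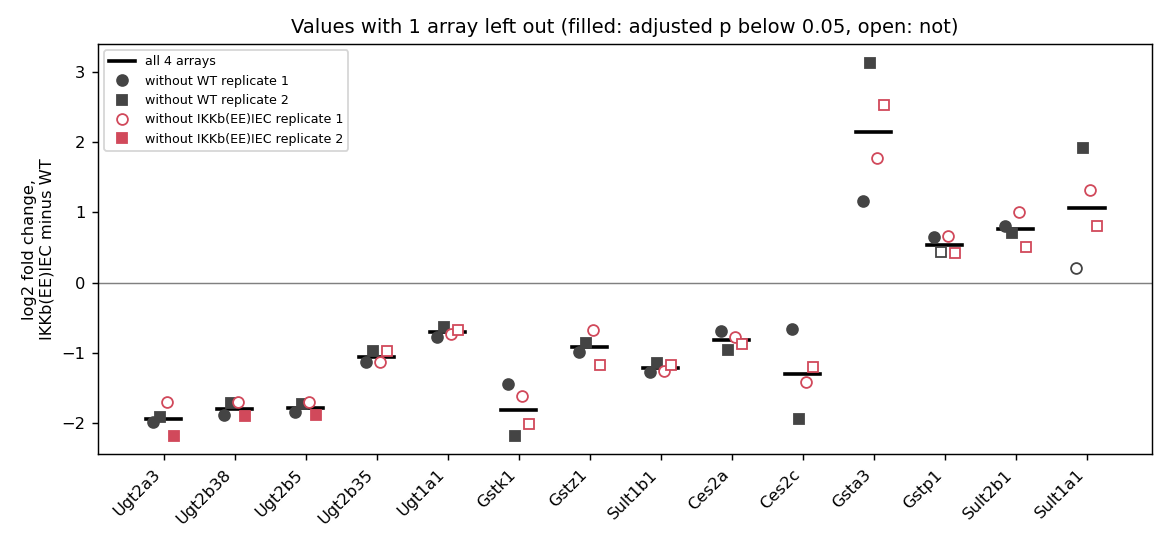
Log2 fold change of the 9 genes that fell and of 5 that did not pass, with all arrays (line) and with each array left out. Filled points passed an adjusted p of 0.05. The 9 genes stay below 0 at every point, which follows from both IKKb(EE)IEC arrays lying below both WT arrays. Gsta3 moves between 1.17 and 3.13 and Ces2c between -1.94 and -0.66.

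The 2 WT samples differed from each other in several members and in markers of intestinal segments. Of 5 distal markers 4 were higher in WT replicate 2 than in WT replicate 1, with the largest differences in Fabp6 (1.04 and 3.99) and Slc10a2 (0.50 and 2.41), and Slc51a was slightly lower. Of 4 measured proximal markers 3 were lower, among them Lct (8.30 and 7.81) and Fabp1 (12.1 and 11.3), and Gata4 was higher (0.05 and 0.32). Gsta3, Sult1a1, Mgst2 and Mgst1 were higher in WT replicate 2, and Ces2c and Gstk1 lower. Between the IKKb(EE)IEC arrays Fabp6 was at 0.50 and 1.72 and Slc10a2 at 0.77 and 1.64. Of 4 measured proximal markers 1 was higher and 2 were lower in IKKb(EE)IEC, and of 5 distal markers 0 were higher and 2 lower. Over all genes tested, 7.96% were higher and 7.17% lower. The part of segment composition in the member values was not tested.

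Markers of the labelled cell type were present. All 10 markers of absorptive enterocytes were well above background on all 4 arrays, with a summed linear level (in units of each array's 75th percentile) of 12646 and 13412 in WT against 6065 and 6018 in IKKb(EE)IEC. Fabp1 and Fabp2 made up most of these sums, and without them the other 8 summed to 1783 and 1512 in WT against 2109 and 2063 in IKKb(EE)IEC. Of these 10, Fabp1 (-1.35), Fabp2 (-1.56) and Lct (-1.26) fell, Anpep (1.10) rose, and the brush border gene Vil1 differed by 0.05. In bulk RNA, fewer cells of a type and less RNA per cell cannot be told apart. Hepatocytes, which carry many of the same enzymes, gave a summed marker level of 3.85 and 32.2 in WT against 1.36 and 1.07 in IKKb(EE)IEC over the 7 of 8 markers that are on the array. On WT replicate 2, 6 of these were well above background, among them Alb, Ahsg, Fgb and Apoh, which were not on any other array. Mup1 was well above background on both WT arrays (0.96 and 4.32) and on neither IKKb(EE)IEC array (-2.09 and -2.11). It passed the filter through the WT arrays alone and was lower (adjusted p = 0.0405 in limma). Trf was well above background on all 4 arrays and did not pass (-0.68). The probe of Ugt2b1, a glucuronosyltransferase of the liver, was not well above background on any of the 4. Of the enzymes of these families listed under older names, Ces3b (-0.52 and 0.89), Ces1c (1.83 and 2.76), Sult2a8 (-0.21 and 0.91) and Gstp3 were higher on WT replicate 2 than on WT replicate 1. Ces2b (6.46 and 5.24), Ces2f (3.19 and 2.34) and Ces2g were lower, and Ces1e and Ces1f nearly level. Markers of Paneth cells fell in 5 of 5 cases, from sums of 11289 and 9505 to 1200 and 1820, where 7.17% of all genes tested were lower. Macrophage markers rose in 3 of 6, with sums from 6.54 and 7.31 to 17.3 and 14.1, where 7.96% of all genes tested were higher. Those that rose (Adgre1, C1qa and C1qc) passed the filter through the IKKb(EE)IEC arrays alone. C1qb (-0.15) and Csf1r (0.34), well above background on all 4 arrays, did not pass, nor did Cd68 (0.79). The part of these cells in the member values was not tested.

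Genes that serve conjugation but lie outside the naming rule were taken from a fixed list. Of 51 such genes, 42 were measured, 8 rose and 2 fell, where 7.96% of all genes tested were higher and 7.17% lower. Their median log2 fold change was 0.20 (all genes -0.12). All these calls were lost with either IKKb(EE)IEC array left out, which leaves no replicate of that genotype. Among the genes of cofactor supply (11 measured), Papss2, which makes PAPS, rose (-0.51 and -0.90 in WT, 0.71 and 0.51 in IKKb(EE)IEC; 1.31 ± 0.21, SE; adjusted p = 0.0203 in limma). Gclm, the modifier subunit of the first enzyme of glutathione synthesis, fell (-0.04 and -0.18 against -1.29 and -1.61; -1.33 ± 0.19, SE; adjusted p = 0.016 in limma), but by only 0.36 and without passing in the authors' value table (adjusted p = 0.0555). The catalytic subunit Gclc was not past the threshold (0.51; adjusted p = 0.0888 in limma), nor was Ugdh, which makes UDP-glucuronic acid (-0.75; 0.124).

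Of 4 other conjugating enzymes measured, Nat8, which acetylates cysteine conjugates, fell (5.82 and 5.78 against 4.87 and 4.93; -0.89 ± 0.16, SE; adjusted p = 0.0284 in limma). It did not pass with the array median as the scale (0.0568 in limma), a fit that gave every gene an SE of 0.32. Of 9 genes of hydrolysis and deconjugation, Arsa, a lysosomal sulfatase, rose (1.73 and 1.45 against 3.25 and 3.11; 1.59 ± 0.19, SE; adjusted p = 0.00891 in limma). Ephx1, the microsomal epoxide hydrolase, did not exceed background clearly on any WT array. With the main processing it was at least 1.34-fold higher (adjusted p = 0.0345 in limma). In the authors' value table its log2 difference was only 0.27 and did not pass (adjusted p = 0.126 in limma). Of 5 exporters of conjugates, Abcc1 was at least 2.43-fold higher (adjusted p = 0.0115 in limma), also with no WT array well above background, and Abcc2 rose (1.08 ± 0.23, SE; adjusted p = 0.0392 in limma).

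Of 13 regulators measured, 3 rose and 0 fell, where 7.96% of all genes tested were higher and 7.17% lower. Ahr, the receptor for aryl hydrocarbons, was at -1.01 and -2.33 in WT and at 1.18 and 0.60 in IKKb(EE)IEC (2.56 ± 0.47, SE; adjusted p = 0.0285 in limma). Keap1, which holds back Nrf2, was at 1.40 and 1.52 against 2.59 and 2.65 (1.16 ± 0.17, SE; adjusted p = 0.0158 in limma). The xenobiotic receptors Nr1i2 (PXR; 0.20, adjusted p = 0.482 in limma) and Nr1i3 (CAR; -0.70, 0.0888) and the Nrf2 gene Nfe2l2 (0.02, 0.962) did not pass.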

How the data were processed

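Cy3-labelled cRNA made from 250 ng total RNA, per the labels' protocols, was hybridised to Agilent arrays of design 014868, all 4 on 1 slide with each genotype at neighbouring positions, which leaves slide position and genotype inseparable (they cannot be told apart). Per the file headers, the deposited intensities are the processed signal written by Feature Extraction version 9.5.3.1, and the authors' value table holds linear intensities whose normalization the sources used here do not give. The other columns used are spot flags and annotation, per the file headers. The 75th percentile of the signal was 60.3 to 107.8, and 34.3% to 41.1% of spots were well above background. The WT arrays correlated at 0.978, the IKKb(EE)IEC arrays at 0.994 and the genotypes at 0.937 to 0.947 across 12433 genes.

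From log2 signal the 75th percentile of the array was subtracted, without control and non-uniform spots, and spots of a probe were averaged. Probes well above background on at least 2 of 4 arrays were kept, and the probe with the highest mean represented a gene. Symbols were updated through RefSeq accessions (GRCm38.p6), for 69 of the 75 member probes. Positions of probes are mm8, and promoter sequences are from RefSeq. The comparison of genotypes used limma 3.58.1 (lmFit, eBayes; R 4.3.3), two-sided, at an adjusted p below 0.05 after Benjamini-Hochberg adjustment over all genes, and was checked on simulated data. With 2 against 2 arrays 3 splits exist and the smallest permutation p is 0.333. A gene with no array of a genotype well above background has its fold given as at least N-fold. Such a bound belongs to the main processing and is no limit under other treatments of background. Alternatives were other scalings and background corrections, filters, probe rules, the replicate block and leaving out each array.

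The text names, per class, the genes that passed (up to 8) or the lowest p until 2 are named, and per role of the other conjugation genes up to 3 that passed and Nr1i2, Nr1i3, Ahr and Nfe2l2. Further genes were named after their values were seen, to account for every member. A result for 1 of the genes so named, which the counts include, is left out and not reported here. The members and lists were chosen with earlier results of these data known.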

Additional observations from a re-analysis of the deposited data

How the results depend on the processing

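None of the 9 genes that fell changed sign under any alternative run. With 1 array left out the sign could not change, as both IKKb(EE)IEC arrays lay below both WT arrays for each of them. The 9 members lower and 0 higher became 8 and 2 with the array median as the scale, 9 and 1 with quantile normalization, 6 and 2 with the repaired normexp correction, 7 and 1 in the authors' value table and 4 and 0 without a filter. Over all genes, 891 lower and 990 higher became, in the same order, 734 and 1259, 714 and 1030, 552 and 1403, 720 and 1041, and 341 and 501. These fits tested 12433 genes, or 12431 with the repaired correction, 12337 in the authors' table and 27718 without a filter. With normexp over all spots the member counts became 0 and 0, as did the calls over all genes, after the correction failed numerically on 2 arrays (2 members lower at an unadjusted limma p below 0.05). The repaired correction, which leaves out spots below their local background, was chosen after seeing the data. The median shift drove limma's prior degrees of freedom to infinity, so that every gene had an SE of 0.32. Leaving out 1 array gave 0 to 18 members lower and 0 to 3 higher. Of the other conjugation genes, 8 higher and 2 lower became 0 and 0 with normexp, 4 and 1 without a filter, and 0 to 14 and 0 to 10 with 1 array left out. The lower count was 1 with the median shift and 1 in the authors' table. The median SE was 0.33 without an IKKb(EE)IEC array and 0.19 without a WT array.

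Mgst1 turned to 0.038 with the repaired normexp correction, and leaving out 1 array gave -0.62 to 0.044. Mgst2 turned to 0.0034 with quantile normalization, and leaving out 1 array gave -0.85 to 0.11. Leaving out 1 array gave -0.24 to 0.28 for Nfe2l2. The cause of these changes was not tested.

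With the replicate number as a block, 7 members were lower and 0 higher (Ugt1a1 and Ces2a no longer passed). Of the other conjugation genes, 8 were higher and 2 lower. Over all 12433 genes, 585 were lower and 910 higher. The deviations of same-numbered arrays correlated at 0.108 across genes, and with 2 pairs the numbers do not establish a pairing. Dim probes are limited by background: the lowest normalized log2 signal of any probe well above it was -1.30 and -1.39 for WT, against -1.83 and -1.99 for IKKb(EE)IEC. Some brighter probes were not well above it, such as that of Gstt1 at -1.12 on WT replicate 2.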

Other observations

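The array lists further enzymes of these families under older names that the naming rule does not take. Under their present symbols they are 12 genes, of which 9 were measured. Of these, 3 were lower and 0 higher in IKKb(EE)IEC, where 7.17% and 7.96% of all genes tested were. Ces3b was at -0.52 and 0.89 in WT, 1.41 apart, and not well above background on either IKKb(EE)IEC array. It thus passed the filter through the WT arrays alone, and was at least 4.27-fold lower (adjusted p = 0.0122 in limma). Ces1c was at 1.83 and 2.76 in WT and at 0.60 and 0.65 in IKKb(EE)IEC (-1.67 ± 0.32, SE; adjusted p = 0.0326 in limma). Ces2f was at 3.19 and 2.34 against 1.50 and 1.50 (-1.27 ± 0.30, SE; adjusted p = 0.048 in limma). Ces1c and Ces2f did not pass without IKKb(EE)IEC replicate 1 (adjusted p = 0.158 and 0.225) or without IKKb(EE)IEC replicate 2 (0.149 and 0.246).

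Ces2b, next to Ces2c on chromosome 8, was at 6.46 and 5.24 in WT and at 4.69 and 4.50 in IKKb(EE)IEC (-1.26 ± 0.41, SE; adjusted p = 0.0878 in limma), and its WT arrays were 1.23 apart, where those of Ces2c were 1.28 apart. Ces1f, at 4.31 and 4.35 against 4.37 and 4.39, differed by 0.05 ± 0.16 (SE). Ces1e (-0.18), Ces2g (0.11), Sult2a8 (-0.33) and Gstp3 (0.79; adjusted p = 0.0762 in limma) did not pass.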
